A study of Oryza sativa with 45 samples.

Results

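Serine proteinase inhibitors are small plant proteins that block digestive and other proteolytic enzymes. Bowman-Birk inhibitors, named after their discoverers, are cysteine-rich and can bind trypsin or chymotrypsin with separate reactive loops. In grasses they occur as gene families, they are abundant in seed tissues such as bran, and they are known to rise after wounding and jasmonate treatment. The potato inhibitor I family is a structurally unrelated group that inhibits chymotrypsin-like and subtilisin-like enzymes and is also known from wounded leaves.

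The transcripts followed here were 6 of the 292 transcripts in the study's list of transcripts changed by salt in all lines. They were those whose array annotation named a Bowman-Birk inhibitor, a BBTI gene or the inhibitor I family, and they were found among 54922 probe sets (transcripts, below) measured in the series. The list had been drawn up from the salt contrast of generation F6, as transcripts changed in every line with a fold above 3 in any of them. The F6 values below thus chose these transcripts and are given as a description without a test. Only the annotation of the list was used, and all values came from the deposited arrays. Descriptions of transcripts outside the list were not used here, so other members of both families may lie on the array.

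RNA of whole rice seedlings (*Oryza sativa* ssp. *japonica* cv. Nipponbare) was hybridised to RUSGene 1.1 ST arrays of Affymetrix, with 1 pool of 10 seedlings, 15 days old, on each. The 45 pools formed 15 conditions of 3 pools. Ta is a transgenic line, Agrobacterium-transformed, with 1 copy of OsICE1 fused to a TAP tag behind the maize ubiquitin promoter. NSb is a negative segregant without a transgene, progeny of another OsICE1 line (Tb) that went through the same transformation procedure. C is a control line raised from seed. In F4 the 3 lines grew without salt. In F6 each line grew under salt (salinity of 12 dS/m for 12 days, Ta salt, NSb salt and C salt) or without it. In F8 no plant was salted, and each line came either from salt-stressed F6 ancestors (salt history) or from unstressed ones. Each genotype was 1 line, so the genotype and the line cannot be told apart. The labels call the pools biological replicates, and the spread that enters a p-value is the one among such pools.

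Signals were RMA values on the log2 scale, on which 1 unit is a 2-fold difference. The median of an array was 4.46 to 4.50 for F4, 4.14 to 4.22 for F6 and 4.53 to 4.58 for F8, and levels are therefore set against each other inside 1 generation only. Signals below the array median can be background, which understates a fold. OsICE1, the transgene of Ta, had log2 signals of 8.82 to 9.63 in the 15 Ta pools, against 4.37 to 6.30 in the 30 pools of NSb and C. Replicate 3 of C without salt in F6 stood apart. The SD over all transcripts of its difference from the mean of the other 2 pools was 0.38, against 0.22 to 0.32 for the other 44 pools. In that pool all 6 inhibitor transcripts were higher than in the other 2 (median log2 difference 1.03), and the 244 other transcripts of the list that were higher under salt had a median difference of 0.21. Salt differences in C, and line comparisons with unsalted C of F6, are given with and without it.

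The Bowman-Birk transcripts all lie on the minus strand of chromosome 1 (coordinates of the array annotation, which follows release 6 of the MSU rice genome annotation). BBTI1 (LOC_Os01g03310) is at 1337229 to 1338139, BBTI2 (LOC_Os01g03320) at 1340319 to 1341277, and BBTI5 (LOC_Os01g03360) at 1352629 to 1365503. BBTI5 spans 12875 bases, is read by 17 probes and carries the names of 2 genes, BBTI5 and BBTI7 (LOC_Os01g03390), so its signal cannot be assigned to either. BBTI12 (LOC_Os01g04050) lies apart from these, at 1759140 to 1760135. Descriptions of these 4 read bran trypsin inhibitor precursor. The 2 inhibitor I transcripts are LOC_Os01g42860, on the plus strand of chromosome 1 at 24391797 to 24392488, and LOC_Os12g36240, on the minus strand of chromosome 12 at 22169250 to 22169987. The RefSeq annotation lists the gene of LOC_Os01g42860 as a long noncoding RNA, although the array annotation calls it an inhibitor I family protein. LOC_Os12g36240 is read by 8 probes, against 17 to 22 for the others, and was not paired with a RefSeq gene. No transcript shared its values with another probe set. Bowman-Birk copies have similar sequences, and signal shared through cross-hybridisation was not tested.

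Under salt all 6 transcripts were higher than without salt in each line of F6, with every salt pool above every unsalted pool of the same line. This separation was seen in 5.41% of all transcripts, and 0.26% were at least 3-fold higher in every line. The median log2 difference of the 6 was 2.18 in Ta, 2.50 in NSb and 2.15 in C (2.53 in C without replicate 3 of the unsalted pools). Averaged over the lines the median was 2.24, beside 1.91 for the 244 other listed transcripts that were higher under salt and -0.01 for all transcripts. With all pools, the smallest salt difference of the 6 in any line was that of BBTI12 in C, at 3.29-fold (4.46-fold without replicate 3 of unsalted C).

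The inhibitor I transcript LOC_Os01g42860 showed the largest difference of the 6 and the 3rd largest mean salt difference of all 54922 transcripts. In Ta its log2 signals were 6.82, 6.89 and 7.38 under salt, against 3.43, 3.35 and 3.36 without salt. NSb had 7.68, 7.48 and 7.66 under salt, against 2.54, 2.36 and 2.97 without salt. In C the values were 7.47, 7.12 and 7.41 under salt, against 2.90, 3.15 and 3.73 without salt. None of the 9 unsalted pools exceeded its array's median, and all 9 salt pools did. The differences were 3.65 in Ta, 4.98 in NSb and 4.07 in C (standard error 0.20 each), or 12.6-fold, 31.7-fold and 16.8-fold. Without replicate 3 of unsalted C, the difference in C was 4.30.

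LOC_Os12g36240, the other inhibitor I transcript, ranked 39th by its mean salt difference. Its log2 signals in Ta were 7.19, 6.77 and 7.07 under salt, against 4.41, 4.29 and 4.30 without salt. In NSb they were 5.92, 6.61 and 6.11 under salt, against 2.58, 2.56 and 3.21 without salt. In C they were 6.45, 6.23 and 6.65 under salt, against 2.88, 2.80 and 5.73 without salt. The unsalted level thus differed among lines and, in C, among pools, with replicate 3 only 0.50 below the lowest salt pool. The salt difference was 2.68 in Ta, 3.43 in NSb and 2.64 in C (standard error 0.52 each). Without replicate 3 of unsalted C, the difference in C was 3.60 (standard error 0.21). The fit shares its spread over all F6 conditions, and without that pool the standard error in Ta and NSb was 0.19.

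BBTI2 had the largest mean salt difference of the Bowman-Birk transcripts (rank 77). Ta pools had log2 signals of 5.58, 5.90 and 5.81 under salt, against 3.45, 3.24 and 3.47 without salt. NSb pools had 5.79, 5.997 and 5.90 under salt, against 3.41, 3.33 and 3.01 without salt. C pools had 5.14, 5.45 and 5.39 under salt, against 3.18, 3.43 and 3.58 without salt. Unsalted pools lay below the array median in all 9 cases, and salt pools above it in all 9. BBTI2 differed by 2.38 in Ta, 2.65 in NSb and 1.93 in C (standard error 0.13 each), and by 2.02 in C without replicate 3.

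BBTI1, its neighbour on the chromosome, was already well above the array median without salt. Under salt the 3 Ta pools had 8.82, 8.85 and 8.57, against 6.88, 6.88 and 6.97 without salt. NSb pools had 8.56, 8.68 and 8.59 under salt, against 6.69, 6.35 and 5.92 without salt. C pools had 8.39, 8.44 and 8.62 under salt, against 5.54, 5.60 and 7.23 without salt. The 9 salt pools of BBTI1 lay within 0.46 of each other on the log2 scale, whichever the line, and the 9 unsalted pools within 1.69. Differences were 1.84 in Ta, 2.29 in NSb and 2.36 in C (standard error 0.31 each), and 2.91 in C without replicate 3. Without that pool the standard error in Ta and NSb was 0.15.

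BBTI12, the trypsin inhibitor gene farther along the chromosome, had a like pattern. Its log2 signals were 8.81, 8.48 and 8.59 in salted Ta, against 6.75, 6.60 and 6.59 in unsalted Ta. In NSb they were 8.54, 8.78 and 8.63 under salt, against 6.62, 6.44 and 6.56 without salt. In C they were 8.55, 8.37 and 8.41 under salt, against 6.15, 6.42 and 7.60 without salt. The salt difference was 1.98 in Ta, 2.11 in NSb and 1.72 in C (standard error 0.24 each), and 2.16 in C without replicate 3. Without that pool the standard error in Ta and NSb was 0.11. BBTI5 had the differences 1.79 in Ta, 2.36 in NSb and 1.88 in C (standard error 0.20 each) and 2.13 in C without replicate 3, with salt pools at 6.39 to 7.11 and unsalted pools at 4.34 to 5.25 over the lines.

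**Figure D1:**
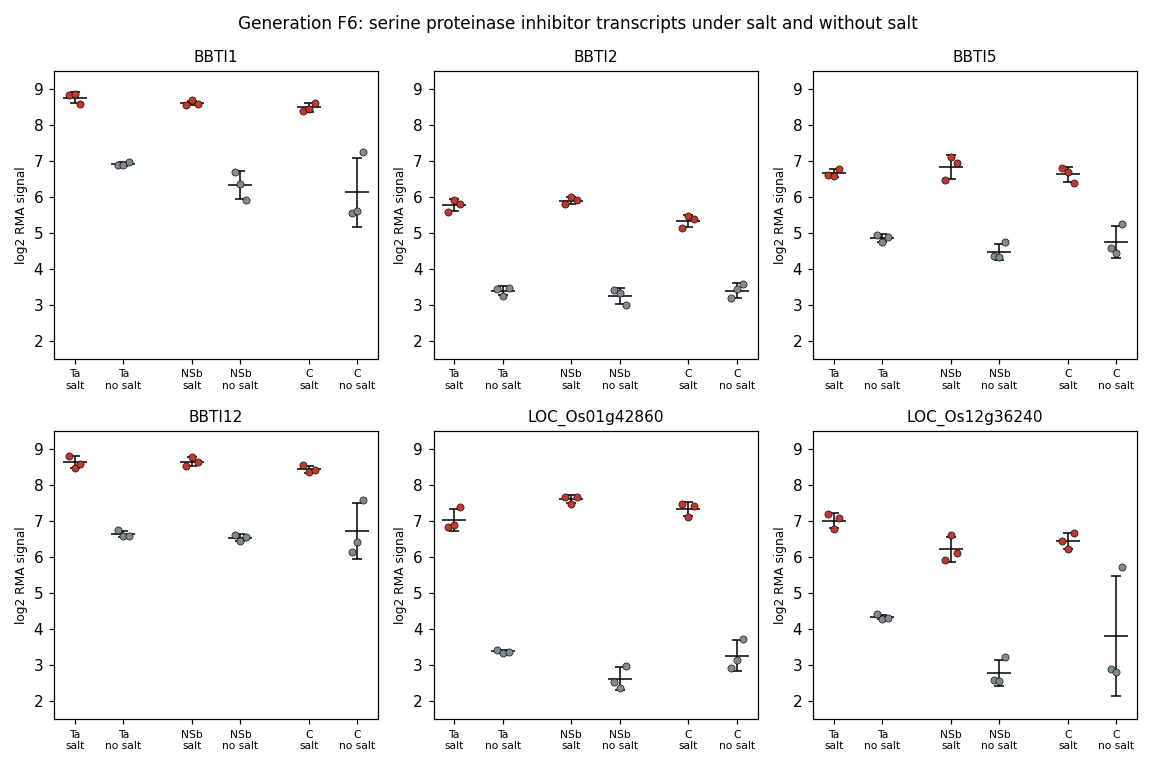
Log2 RMA signal of the 6 serine proteinase inhibitor transcripts in generation F6, with points for the 3 pools of a condition, a horizontal mark for their mean and a bar for their SD. Salt pools (red) lie above the unsalted pools (grey) of their line in each panel, and 1 unsalted C pool lies above the other 2 in BBTI1, BBTI12 and LOC_Os12g36240.

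In the plot of single pools, unsalted C had the widest spread for 5 of the 6 transcripts among the 6 conditions of F6, with SDs up to 1.67 (LOC_Os12g36240). The exception was BBTI2, whose SD was 0.20 in unsalted C and 0.21 in unsalted NSb. The deviation of each pool from the other pools of its condition showed the same 1 pool.

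**Figure D2:**
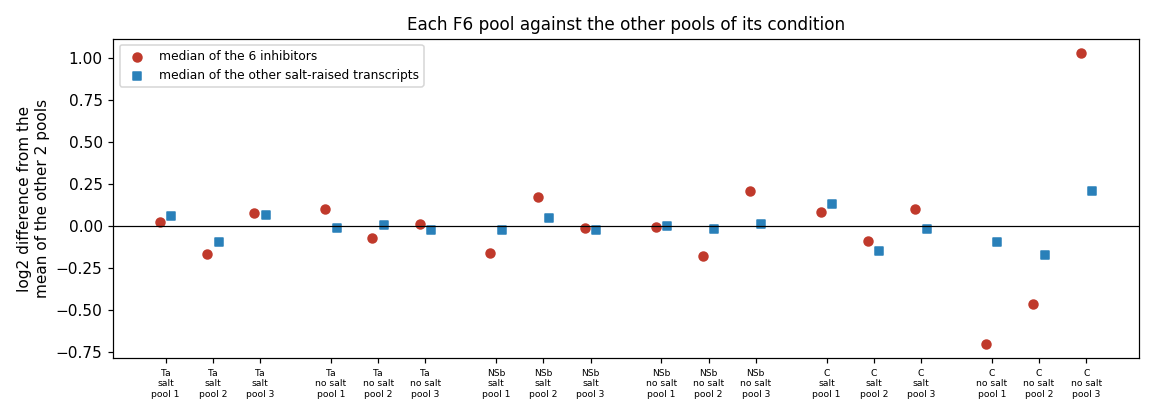
Each of the 18 F6 pools against the mean of the other 2 pools of its condition, as the median log2 difference of the 6 inhibitor transcripts (red) and of the 244 other salt-raised transcripts of the list (blue). Replicate 3 of unsalted C was 1.03 higher for the inhibitors and 0.21 higher for the others.

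Between the lines of F6, the inhibitors are again described without a test. Without salt the median log2 difference of the 6 was 0.11 for Ta minus C, -0.23 for NSb minus C and 0.49 for Ta minus NSb, and each of the 6 had a higher mean in Ta than in NSb. Without replicate 3 of unsalted C these medians were 0.36 for Ta minus C, with 6 of 6 higher in Ta against 4 of 6 with that pool, and -0.04 for NSb minus C. The widest gap was that of LOC_Os12g36240, whose means were 4.33 in Ta and 2.78 in NSb (SD 0.07 and 0.37, n = 3 each). Under salt the medians were 0.23 for Ta minus C, 0.21 for NSb minus C and -0.07 for Ta minus NSb. The comparison of salt differences between lines turned on the pool that stood apart. With it, the salt difference was larger in NSb than in C for 5 of the 6 transcripts (median 0.60), and without it for 3 of 6 (median 0.09). In Ta it was larger than in C for 3 of 6 with that pool (median -0.03) and for 1 of 6 without it (median -0.49). BBTI2 was larger in Ta and in NSb than in C both with that pool (0.45 and 0.72) and without it (0.36 and 0.63). These comparisons share the C pools.

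A further transcript of the list, Os01g0124400, carries the same transcript record as BBTI5 but has no description. Its signal lay above that of at least 90.5% of transcripts in every unsalted F6 pool. The salt difference was 1.69 in Ta and 2.56 in NSb (standard error 0.27 each, and 0.11 each without replicate 3 of unsalted C). In C it was 4.59-fold with replicate 3 of the unsalted pools and 6.45-fold without it. PIII1 (LOC_Os03g52390), a gene of the inhibitor II family, was the nearest related transcript of the list that the choice left out. Its salt difference was 1.62 in Ta, 2.30 in NSb and 2.12 in C (standard error 0.12 each), and 2.22 in C without replicate 3. The unsalted C pools had 4.65, 4.71 and 4.97 for PIII1, with replicate 3 the highest here too.

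The genes between and around the Bowman-Birk transcripts were taken in the order of the RefSeq rice annotation (assembly ASM3414082v1). Between BBTI2 and BBTI5 lie LOC4326000 and LOC9268662, to which no function is given here. LOC4326000 had log2 signals of 2.95 to 3.35 in salted Ta, against 1.86 to 2.15 in unsalted Ta, and LOC9268662 had 4.01 to 4.22, against 2.58 to 2.78. Both were higher under salt, by 1.07 (standard error 0.10, adjusted p = 1.21e-06) and by 1.23 (standard error 0.09, adjusted p = 4.9e-08) as means over the lines. LOC4326000 lay below the array median in every pool. LOC9268662 did so in every pool except replicate 1 of salted C (4.24, against an array median of 4.19). Both folds may therefore be understated, and signal shared with the Bowman-Birk transcripts through cross-hybridisation was not tested. Around them, 48 genes that are no members were measured, from 10 positions before BBTI1 to 61 after it. Of these 18 were called higher and 6 lower under salt in the mean over lines, when 15.2% and 11.7% of all transcripts were called, and their median difference was 0.09. The 4 measured genes before BBTI1 lay between -0.14 and 0.06, and the 2 next to BBTI12 on either side, LOC4325793 and LOC4325796, at 0.16 and -0.06. The raised transcripts therefore did not form an unbroken run as far as BBTI12.

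**Figure D3:**
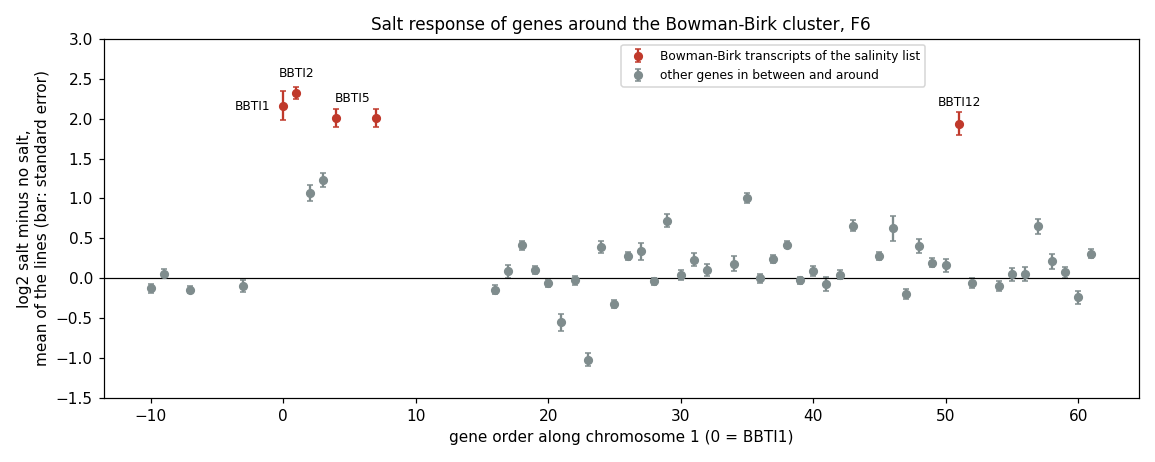
Log2 salt minus no salt in F6, as the mean of the 3 lines with its standard error, against gene order along chromosome 1 counted from BBTI1. The Bowman-Birk transcripts of the salt list (red) lie between 1.94 and 2.32. This contrast chose them, so their place above the other genes (grey) is no result. BBTI5 is drawn at both genes that its probe set names. Grey genes may include further family members, as descriptions outside the list were not used. The 2 genes between BBTI2 and BBTI5 lie at 1.07 and 1.23.

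Genes of other proteolysis and wound groups were counted in the same F6 fit. Both subtilisin-like proteinases of the list, OsSub8 (LOC_Os01g58280) and OsSub38 (LOC_Os04g03810), were higher under salt by 2.01 (standard error 0.29) and 1.70 (standard error 0.09), but the study had chosen them by this contrast. Of 4 oryzacystatins, which inhibit cysteine proteinases, OC-I rose by 1.00 (standard error 0.06, adjusted p = 7.9e-09) and OC-II rose by 0.84 (standard error 0.05, adjusted p = 7e-09). OC-III and OC-IV differed by 0.00 and -0.02, with adjusted p = 0.984 and 0.891. Of 42 wound and jasmonate genes 17 were called higher and 8 lower, with a median of 0.16. Of these, 6 were in the study's list, among them lipoxygenase 2.1 (LOC_Os12g37260, 3.68), the wound and stress protein LOC_Os04g38360 (2.55) and the wound-induced proteins WIP2 (LOC_Os11g37940, 2.35) and WIP3 (LOC_Os11g37950, 2.31). Among the 36 that the study had not listed, 11 were called higher and 8 lower with a median of 0.12, against 15.2% higher and 11.7% lower of all transcripts. The jasmonate repressor gene JAZ11 (LOC4331833) rose by 1.00 (standard error 0.09, adjusted p = 3.16e-07), JAZ12 (LOC4348533) by 0.71 (standard error 0.07, adjusted p = 1.16e-06) and the lipoxygenase gene LOX4 (LOC4333821) by 0.68 (standard error 0.07, adjusted p = 1.74e-06), the 3 of smallest p among the 11. Of the 8 called lower, those of smallest p were TIFY1B (LOC4334019, -0.43, standard error 0.09, adjusted p = 0.00128) and the jasmonate repressor genes JAZ9 (LOC4331832, -0.35, standard error 0.07, adjusted p = 0.00137) and JAZ4 (LOC4347000, -0.21, standard error 0.04, adjusted p = 0.0016). The jasmonate synthesis genes AOS1 (LOC4334233) and AOS2 (LOC4332121) were called lower as well, at -0.26 and -0.35 (adjusted p = 0.0323 and 0.0255). The group was matched by gene names, and its genes TIFY1A, TIFY1B, TIFY2A and TIFY2B are also named as GATA genes. TIFY1A and TIFY1B were among the 8 called lower, and TIFY2A was among the 11 called higher.

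Whole seedlings hold shoots and roots, and fewer cells of a type cannot be told apart from less RNA per cell. The log2 summed signal of 4 shoot markers was 10.98, 10.98 and 11.12 in salted Ta, NSb and C, against 11.04, 11.03 and 11.05 in the unsalted lines, and 0 of 4 were called. That of 7 root markers, mostly nitrate, ammonium and silicon transporters, was 10.49, 10.52 and 10.66 in salted Ta, NSb and C, against 11.06, 11.21 and 11.10 in the unsalted lines. Of the 7, 4 were called lower and 2 higher in the mean over lines, when 11.7% and 15.2% of all transcripts were. The lower ones were NRT2.1 (-3.35) and NAR2.1 (-2.65), both in the study's list, NRT2.2 (-1.28) and the ammonium transporter gene LOC4330007 (-0.81). LOC4330008, another ammonium transporter gene (0.43), and Lsi1 (0.30) were higher, and Lsi2 was not called (0.06). The study had chosen NRT2.1 and NAR2.1 by this contrast, and both enter the summed signal. Of the 5 root markers that the study had not listed, 2 were called higher and 2 lower, with a median of 0.06. The root markers thus did not move together. What the lower sum contributes to the inhibitors' difference was not tested.

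In F8, whose plants had salted or unsalted F6 ancestors, none of the 6 transcripts passed the test for salt history. In limma fits of the 18 F8 pools, p-values being adjusted by Benjamini and Hochberg over all transcripts, 0 of 6 had an adjusted p under 0.05 in any line, where 0.031%, 0.00364% and 0% of all transcripts did in Ta, NSb and C. At an unadjusted p under 0.05 there were 0 of 6 in Ta, 2 of 6 in NSb and 1 of 6 in C, where 7.12%, 6.71% and 5.37% of all transcripts were. The median log2 difference of the 6 was -0.11 in Ta, 0.20 in NSb and 0.03 in C, against medians of -0.10, -0.0039 and -0.02 for the other listed transcripts that were higher under salt. Plotted on 1 scale, the differences for salt history lay between -0.32 and 0.60, and those for salt between 1.72 and 4.98.

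**Figure D4:**
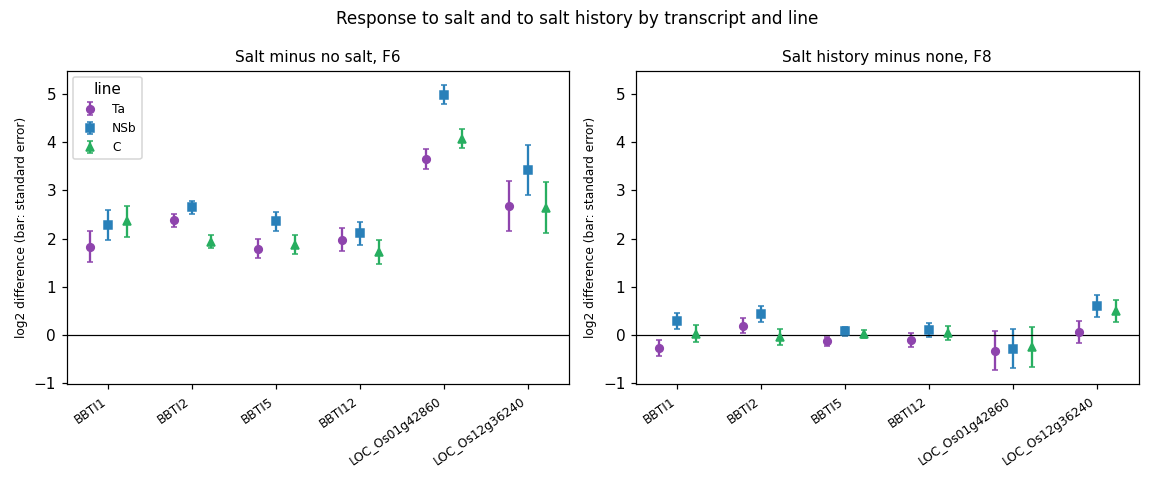
Log2 differences of the 6 transcripts with their standard errors, for salt minus no salt in F6 (left) and for salt history minus none in F8 (right), by line. The salt differences lie between 1.72 and 4.98 and those for salt history between -0.32 and 0.60.

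The 3 values for salt history with an unadjusted p under 0.05 belonged to LOC_Os12g36240 and BBTI2. In NSb, LOC_Os12g36240 had log2 signals of 5.45, 5.93 and 5.64 with salt history, against 5.34, 5.24 and 4.64 without. In C it had 5.22, 5.85 and 5.76 with salt history, against 5.19, 5.07 and 5.08 without. These pools did not overlap in either line, and the differences were 0.60 in NSb and 0.49 in C (95% intervals 0.11 to 1.09 and 0.0048 to 0.99, adjusted p = 0.687 and 0.925). In Ta the pools overlapped, at 4.97, 5.58 and 5.49 with salt history, against 4.85, 5.40 and 5.57 without. As a mean over the lines the difference was 0.39 (standard error 0.13, adjusted p = 0.496), where 0.0455% of all transcripts were called. BBTI2 in NSb had 3.72, 3.74 and 4.05 with salt history, against 3.15, 3.34 and 3.69 without, a difference of 0.44 (95% interval 0.09 to 0.80, adjusted p = 0.683). None of the 18 F8 pools exceeded its array's median for BBTI2. Pools with salt history lay above all pools without it in 6.06% of all transcripts in NSb and in 4.36% in C.

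LOC_Os01g42860, the transcript with the largest salt difference, had negative values for salt history in each line, at -0.32 in Ta, -0.28 in NSb and -0.25 in C (standard error 0.41 each, lowest adjusted p = 0.922). The 95% intervals reached at most 0.62, so a rise of the size seen under salt lay outside them. For the 3 other Bowman-Birk transcripts the differences lay between -0.26 and 0.30. In the test of whether the history effect differed between lines, 0 of 6 were called for Ta minus C and 0 of 6 for NSb minus C, where 0% of all transcripts were called in both. At an unadjusted p under 0.05 there were 0 of 6 in both, and BBTI2 in NSb minus C came closest (0.49, 95% interval -0.01 to 0.98, adjusted p = 0.862).

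In F4, the first generation on the arrays, all 6 transcripts had a lower mean in Ta than in C, with a median log2 difference of -0.29. Over all transcripts that median was -0.01, and over the other listed transcripts higher under salt it was -0.09. No member passed the limma test with adjustment over all transcripts, in 0 of 6 for Ta minus C, NSb minus C and Ta minus NSb, where 0.164%, 1.06% and 0.071% of all transcripts were called. At an unadjusted p under 0.05 there were 3, 1 and 2 of 6 in the same order, where 11.8%, 13.3% and 7.46% of all transcripts were. Ta pools lay below all C pools for 4 of the 6, a separation found in 7.21% of all transcripts. They lay below all NSb pools for BBTI1, BBTI2 and LOC_Os01g42860, where 5.89% of all transcripts did, and NSb pools lay below all C pools for BBTI5 alone, where 8.46% did.

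BBTI1 had the largest of these differences. Its log2 signals in F4 were 6.39, 6.001 and 5.97 in Ta, 6.97, 7.22 and 6.89 in NSb, and 6.55, 6.72 and 7.17 in C. Ta pools thus lay below every pool of the other lines. The difference was -0.69 for Ta minus C (standard error 0.18, adjusted p = 0.186) and -0.91 for Ta minus NSb (standard error 0.18, adjusted p = 0.216). BBTI5 had 5.50, 5.54 and 5.62 in Ta, 5.30, 5.23 and 5.62 in NSb, and 5.82, 5.84 and 5.83 in C. Ta and NSb therefore lay below C in every pool of BBTI5, by -0.28 in Ta (standard error 0.10, adjusted p = 0.353) and by -0.45 in NSb (standard error 0.10, adjusted p = 0.0999). The value for NSb passed the threshold without replicate 3 of NSb (-0.57, adjusted p = 0.0439), and with transcripts of low signal left out (adjusted p = 0.0457). Os01g0124400, which carries the same transcript record as BBTI5, did not separate the lines in F4. It had 9.03, 8.90 and 9.16 in Ta, 8.90, 9.03 and 9.20 in NSb, and 9.10, 9.16 and 9.30 in C. BBTI12, at -0.30 for Ta minus C, and LOC_Os01g42860, at -0.24, were the other transcripts with Ta pools below all C pools. LOC_Os01g42860 lay between 1.77 and 2.75 in the 9 pools of F4, under the array median in each.

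**Figure D5:**
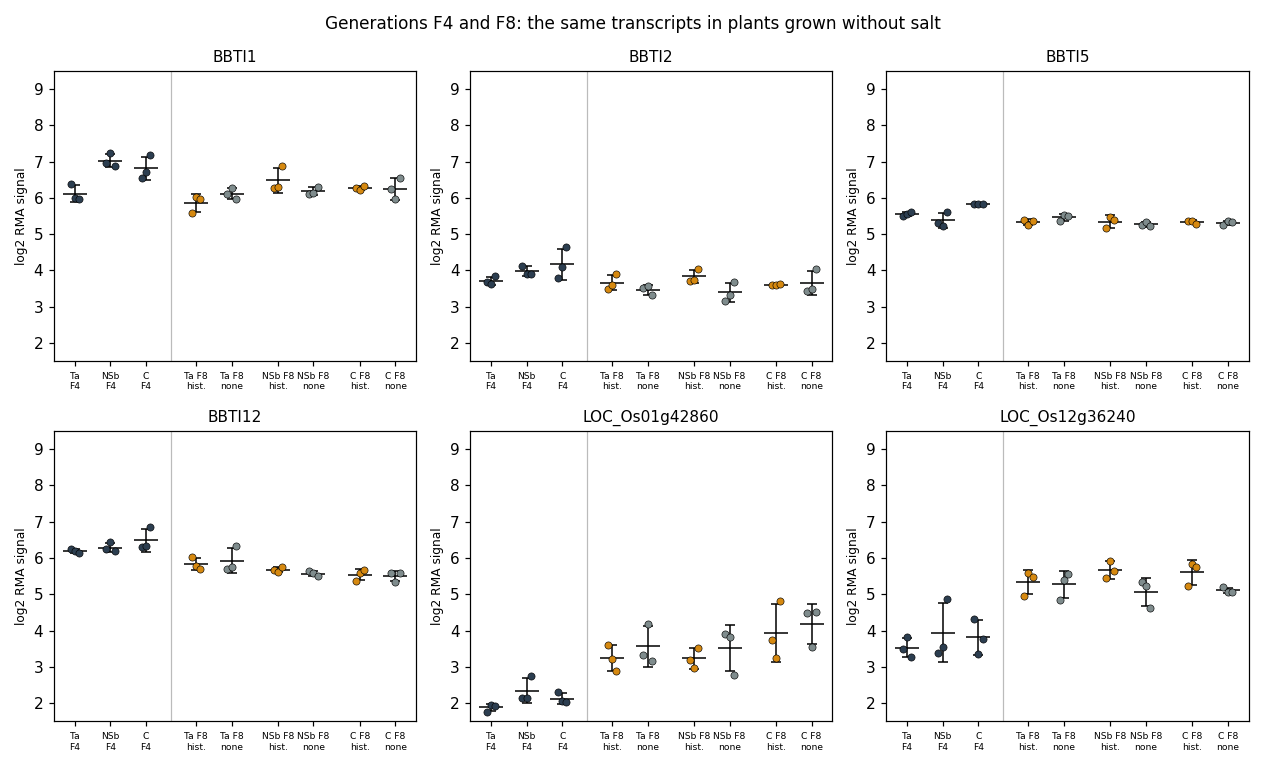
Log2 RMA signal of the 6 transcripts in F4 (dark) and in F8 with salt history (orange) or without (grey), with points for the 3 pools, a horizontal mark for the mean and a bar for the SD. Levels on the 2 sides of the vertical line belong to different generations and are not comparable; within F4, BBTI1 is lowest in the Ta pools.

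In F8 without salt history the lines were compared again. The median log2 difference of the 6 was 0.01 for Ta minus C, -0.05 for NSb minus C and 0.13 for Ta minus NSb, and 0 of 6 were called in each, where 0.508%, 0.0419% and 0.319% of all transcripts were. At an unadjusted p under 0.05 there were 1, 0 and 0 of 6, where 9.73%, 6% and 8.72% of all transcripts were. That transcript was BBTI12, with log2 signals of 5.69, 5.77 and 6.34 in Ta, 5.64, 5.59 and 5.49 in NSb, and 5.58, 5.34 and 5.58 in C. Its Ta pools were above every pool of NSb and C, by 0.43 over C (standard error 0.16, adjusted p = 0.418). Ta pools lay above all C pools in 8.3% of all transcripts. For BBTI12 and BBTI5 they also lay above all NSb pools, as they did in 7.44% of all transcripts.

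With salt history the F8 lines gave 0 of 6 calls in Ta minus C, NSb minus C and Ta minus NSb, where 0.402%, 0.0546% and 0.189% of all transcripts were called. At an unadjusted p under 0.05 there were 2, 0 and 1 of 6, where 10%, 9.01% and 7.83% of all transcripts were. BBTI1 had 5.58, 6.02 and 5.96 in Ta, 6.28, 6.30 and 6.87 in NSb, and 6.28, 6.22 and 6.32 in C. Its Ta pools were the lowest here, at -0.42 against C (standard error 0.17, adjusted p = 0.451) and -0.63 against NSb (standard error 0.17, adjusted p = 0.322). Ta pools lay below all C pools in 6.63% of all transcripts and below all NSb pools in 6.53%. In F8 without salt history the BBTI1 pools of the lines overlapped, with means of 6.12 in Ta, 6.18 in NSb and 6.24 in C. In F6, described without a test, its mean was highest in Ta. Without salt Ta minus C was 0.79, and 1.34 without replicate 3 of C. Under salt the means were 8.75 in Ta, 8.61 in NSb and 8.48 in C. For BBTI12 the difference of Ta from C was 0.29 (standard error 0.11, adjusted p = 0.427), with Ta pools above all C pools, as in 8.24% of all transcripts. BBTI2 was the only one of the 6 with NSb pools above all C pools, which 8.4% of all transcripts showed. LOC_Os01g42860 varied most among pools in F8, between 2.79 and 4.82, and its highest mean was in C in both sets of plants.

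The difference of Ta from C changed upward between F4 and F8 for 5 of the 6 transcripts, with a median change of 0.43 against 0.01 for all transcripts and 0.21 for the other listed transcripts higher under salt. In the fit of the 18 pools of F4 and of F8 without salt history, 0 of 6 were called for Ta and 0 of 6 for NSb, where 0.703% and 0.366% of all transcripts were. At an unadjusted p under 0.05 there were 3 and 1 of 6, where 9.89% and 9.04% of all transcripts were. The 3 were BBTI12 (0.73, standard error 0.23, adjusted p = 0.233), BBTI1 (0.57, standard error 0.24, adjusted p = 0.454) and BBTI5 (0.43, standard error 0.13, adjusted p = 0.215). For BBTI5 in NSb the change was 0.41 (standard error 0.13, adjusted p = 0.286), with F4 means of 5.38 in NSb and 5.83 in C and F8 means of 5.27 and 5.31 in the same order.

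PIII1 was set beside them in F8. Without salt history its log2 signals were 6.34, 6.45 and 6.22 in Ta, 5.28, 5.37 and 4.47 in NSb, and 5.88, 5.57 and 5.91 in C. Ta minus NSb was 1.30 (standard error 0.22, adjusted p = 0.0507), with all Ta pools above all NSb pools, as in 7.44% of all transcripts. It missed the threshold in the main fit, passed it in 5 of the alternative settings and did not pass in the rest. These settings include each of the 9 arrays left out in turn. In Ta with salt history the values were 5.91, 5.11 and 5.42, a difference of -0.86 from Ta without (standard error 0.25, adjusted p = 0.412). Os01g0124400 lay between 8.22 and 8.96 in all 18 pools of F8, and none of its tested differences reached an adjusted p under 0.05. Of the wound and jasmonate genes, 5 were called higher in NSb than in C in F4 and 3 higher in Ta than in C in F8 without salt history, where 0.615% and 0.266% of all transcripts were called higher. JAZ10 (LOC4331834), a jasmonate repressor gene, was among them in both, at 1.96 in NSb minus C of F4 (standard error 0.32, adjusted p = 0.0322) and 1.71 in Ta minus C of F8 (standard error 0.16, adjusted p = 0.00319).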

How the data were processed

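RNA of 45 pools of 10 seedlings was hybridised to RUSGene 1.1 ST arrays, and conditions were taken from the sample titles. RMA, run by the authors in Expression Console of Affymetrix (versions not stated), gave the deposited signals, which are on the log2 scale from 0.649 to 12.944 and were not normalised again. The array annotation gave 1 gene symbol to 24080 probe sets, several to 95 and none to 30747. The study's table of salt transcripts gave the descriptions and coordinates. Its columns of signals, fold changes and p-values, the authors' own results, were not used.

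Linear models were fitted in limma 3.58.1 (R 4.3.3), with the package data.table at version 1.17.8, with group means only, moderated variances, 2-sided tests and p-values adjusted by Benjamini and Hochberg within each comparison over every probe set. An adjusted p under 0.05 made a call, whatever the fold. Lines were fitted over 9 arrays, and salt, salt history and changes between F4 and F8 over 18. Members of the list got no p from F6, because F6 chose them. Figures were drawn with matplotlib 3.10.9 and tables made with pandas 2.3.3 on numpy 2.4.6 (Python 3.11.15). The scripts were tested on simulated data.

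Named were all members, Os01g0124400, PIII1, the 5 probe sets most like the members over the 15 conditions, and, from each gene list, its 4 genes of smallest p. LOC4326000, LOC9268662, other neighbours, LOC4330008, Lsi1, Lsi2, JAZ10, JAZ11, JAZ12, LOX4, TIFY1A, TIFY1B, TIFY2A, TIFY2B, JAZ9, JAZ4, AOS1 and AOS2 were named for their place or after their values were seen. The 4 oryzacystatins were matched by symbol, an addition to the planned list. The members and lists were chosen with earlier results of these data known. Alternatives were a fold of at least 3, a filter to the 10% of probe sets with the highest SD, a filter on low signals, centring of arrays, an intensity trend with robust variances, all 45 arrays in 1 fit, only the 2 groups compared, the replicate number as a block, identical probe sets counted once, and each array left out. The number of arrays limits the precision. No sequence was printed, because the reference tables given hold none for these genes.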

Additional observations from a re-analysis of the deposited data

How the results depend on the processing

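The counts of 0 among the 6 transcripts, for the lines of F4 and F8, for salt history, for its difference between lines and for the change between F4 and F8, were the same under every alternative that was run, with 1 exception. For the lines of F4, 1 of 6 was called (BBTI5, NSb minus C) with a filter on low signals, which left 3 of the 6 in the fit, and leaving out each array in turn gave 0 to 1, the 1 without replicate 3 of NSb. For the other 5 results leaving out each array gave 0 to 0. The filter on the highest SD left only 1 or 2 of the 6 in the fit, so its counts of 0 cover those alone. A fit of only the groups compared was not made for differences of differences.

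The replicate block gave 0 of 6 in each comparison, and the numbers share no stated origin. Deviations of same-numbered pools correlated with a median of 0.00 in F4, -0.01 in F6 and 0.01 in F8, and 1 of 9, 6 of 45 and 2 of 45 pairs were over 0.1, so the numbers were not taken to pair the pools. Over all transcripts, the block moved the number called for any pair of F4 lines to 212, against 624 without it.

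The salt differences in F6 kept their direction in all 480 values recomputed for the 6 inhibitors, Os01g0124400 and PIII1. Of these 4 moved by more than the spread between pools, all in C without its unsalted replicate 3 (BBTI1, BBTI12, LOC_Os12g36240 and Os01g0124400). Of 551 recomputed values of the 26 tested differences with an unadjusted p under 0.05, 544 stayed on their side of the threshold, 7 crossed it (2 of BBTI5 and 5 of PIII1) and 0 turned round. Signals under the array median limit the folds of LOC_Os01g42860, BBTI2 and, in NSb and C, LOC_Os12g36240. Leaving out that pool in the comparisons of the F6 lines, an alternative chosen after seeing the data, changed the median of the 6 inhibitors for the salt difference in NSb minus C to 0.09, against 0.60 with the pool, and for Ta minus C to -0.49, against -0.03 with it.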

Other observations

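Over the 15 condition means, each centred on its generation, every inhibitor followed the mean of the other 5 closely, with Pearson's r between 0.95 and 0.98. These points share the F6 salt contrast that chose the transcripts, so the values only describe. The 5 named transcripts most like the mean of the 6 were LOC_Os03g48750 and LOC_Os03g48780, both cupin domain proteins (r = 0.99 each), LOC_Os12g14440, a jacalin-like lectin (r = 0.99), LOC_Os01g71624, an expressed protein without a described function (r = 0.99), and Os01g0944900, without a description (r = 0.99). All 5 were in the study's salt list, with mean salt differences of 3.07, 2.85, 6.53, 3.69 and 2.06 on the log2 scale.

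Within conditions the transcripts varied less together. Over the deviations of the 45 pools from their condition means, BBTI1 and BBTI2, next to each other on the chromosome, had r = 0.58. Over the 27 pools of F4 and F8, which were not used to choose them, they had r = 0.70. In these generations BBTI2 exceeded the array median in 1 of 9 pools of F4 and 0 of 18 pools of F8. Signal shared by the 2 transcripts through cross-hybridisation was not tested. BBTI5, the next Bowman-Birk transcript of the list along the chromosome, had r = -0.19 with BBTI1 and r = 0.04 with BBTI2 in F4 and F8. BBTI5 and LOC_Os12g36240, on different chromosomes, had r = 0.70 over all pools and r = 0.52 in F4 and F8. For BBTI1 and BBTI12 the value was 0.67 over all pools and 0.21 without the unsalted C pools of F6, and for BBTI12 and LOC_Os12g36240 it was 0.65 and 0.16, so both rested on those pools. Pools of a condition share a line and a generation, and these 15 pairs are a description. BBTI5 and Os01g0124400, which carry the same transcript record, had r = 0.73, and r = 0.51 without the unsalted C pools of F6.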
